A study of Mus musculus with 2 samples.

Results

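Alveolar type 1 cells are the thin, flat cells that cover most of the gas exchange surface of the lung. Type 2 cells are cuboidal, make surfactant and can give rise to type 1 cells, so transcripts known as type 1 markers can be read in a type 2 cell preparation. The values below cover 10 such markers, namely Ager, Hopx, Pdpn, Akap5, Sema3a, Spock2, Clic5, Rtkn2, Cav1 and Emp2, chosen by symbol from a table of 24369 gene rows. All 10 had a row, and all 10 reached 1 RPKM in both libraries. RPKM counts reads per kilobase of a gene and allows for sequencing depth, so levels of different genes can be set side by side.

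Total RNA of cells labelled as type II pneumocytes was sequenced in 2 libraries, 1 from postnatal day 28 (P28) and 1 from postnatal day 7 (P7). Both came from wild-type mice (strain C57BL6, genotype WT). The labels name no treatment, no sort markers and no number of animals per library. With 1 library per age there is no replicate spread and no p-value, and every difference is between these 2 libraries. Intervals are 95% counting intervals from read numbers recovered from the RPKM values, about 24600000 reads behind the P28 values and 17600000 behind those of P7, and they cover counting error only. Fewer cells of a kind and less RNA per cell cannot be told apart in such bulk samples.

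The label of the cells was checked against type 2 markers. Sftpc, the surfactant protein C gene, had 24085 RPKM at P28 and 13343 RPKM at P7, and all 12 type 2 markers passed 1 RPKM. Of 10 leukocyte markers 4 reached 1 RPKM. They were Cd79b, a B cell receptor chain (3.02 RPKM at P28 and 2.84 at P7), Srgn, serglycin (1.34 and 4.36), the macrophage gene Cd68 (1.08 and 0.455), and Lyz2, a lysozyme gene that type 2 cells express as well (5809 and 1635). Marco and C1qa, both macrophage genes, were at 0 in both libraries. The 10 airway markers, led by the club cell gene Scgb1a1 with 18104 RPKM at P28 and 6764 at P7, held 13.3% of the total RPKM at P28 and 6.70% at P7, and their part in the marker values was not tested. Xist, expressed from the inactive X chromosome of females, had 0.245 RPKM at P28 and 52.7 at P7, and Ddx3y, Kdm5d, Uty and Eif2s3y, all on the Y chromosome, had 2.16 to 7.19 RPKM at P28 and were at 0 at P7. Sex and age therefore cannot be told apart in any value below.

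The sequences before the annotated starts of the markers differ widely in base composition. Those of Akap5 and Sema3a, the markers with the largest differences between the ages, and of Ager, one of the 2 with the smallest, are shown as the 250 bases before the RefSeq start (GRCm38.p6), 5′ to 3′ on the gene's strand, with CG dinucleotides in capitals.

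Akap5, chr12:76324641-76324890, plus strand: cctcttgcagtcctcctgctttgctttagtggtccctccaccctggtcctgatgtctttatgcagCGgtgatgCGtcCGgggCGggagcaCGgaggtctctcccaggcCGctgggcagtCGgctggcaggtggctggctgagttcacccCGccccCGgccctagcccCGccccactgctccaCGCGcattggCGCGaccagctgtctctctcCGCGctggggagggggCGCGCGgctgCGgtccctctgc

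Sema3a, chr5:13396534-13396783, plus strand: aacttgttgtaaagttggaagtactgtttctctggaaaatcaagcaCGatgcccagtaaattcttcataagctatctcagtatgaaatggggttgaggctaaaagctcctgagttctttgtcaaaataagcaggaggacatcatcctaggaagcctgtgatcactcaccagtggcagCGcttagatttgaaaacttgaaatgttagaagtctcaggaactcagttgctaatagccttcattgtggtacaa

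Ager, chr17:34597600-34597849, plus strand: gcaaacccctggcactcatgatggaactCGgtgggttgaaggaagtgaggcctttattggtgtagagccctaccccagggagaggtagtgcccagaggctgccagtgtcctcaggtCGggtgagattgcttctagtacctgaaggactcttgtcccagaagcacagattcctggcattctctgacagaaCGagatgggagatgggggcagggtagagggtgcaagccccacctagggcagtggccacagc

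Akap5 and Sema3a, whose RPKM ratios are nearly the same (below), have the most GC-rich and the least GC-rich of the 11 windows found for 9 markers (Hopx and Cav1 have 2 starts each, and Rtkn2 has no entry). The Sema3a window lies inside the annotated span of its gene, which begins at 13125414, so it precedes an internal start. The Akap5 window ends directly before the first base of its gene, 76324891. The 2 windows are therefore at unlike positions in their genes. The Akap5 window is 70% G or C with 20 CG dinucleotides, against 40.8% and 2 in the Sema3a window. The Ager window, of a gene with a much smaller difference, is 57.6% G or C with only 3 CG dinucleotides. Over the 9426 windows of genes that reached 1 RPKM, the median was 60.4% G or C. Core letters bound by regulators of type 1 cells were searched on both strands, GGAATG for the TEAD factors, CACTTG for NKX2-1 and AGATAA for GATA factors. None of the 11 windows held any of them, while 10.5%, 9.59% and 5.32% of the 9426 windows held them. The GC box GGGCGG was in 4 of the 11 windows, those of Akap5, Clic5, Cav1 and Emp2, against 59.3% of the 9426. These counts describe the letters of short windows only.

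All 10 markers were lower at P28 than at P7. Their RPKM values summed to 250.4 at P28 and 438.9 at P7, or 0.175% and 0.404% of the total RPKM of each library. The median RPKM ratio of P28 over P7 was 0.526, and single ratios ran from 0.271 for Sema3a to 0.760 for Hopx, a 2.80-fold spread. The counting interval of the ratio lay wholly below 1 for all 10. It did so for 26.6% of 9581 genes that reached 1 RPKM in either library, had a transcript length and had reads in both. On the scale of log2(RPKM + 1), 3 markers were at least 2-fold lower at P28, namely Akap5, Sema3a and Spock2, and none was higher. The background was 9653 genes with 1 RPKM or more in either library, of which 1.96% were lower by that rule and 1.18% higher. At a threshold of 1.5-fold, 8 markers were lower, all but Ager and Hopx, against 7.46% of the background. The median log2 ratio was -0.85 over the 10 markers and -0.08 over all genes.

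The RPKM total of the library was larger at P28 (143071) than at P7 (108758). A few abundant transcripts weigh on these totals. Sftpc had 24085 RPKM at P28 and 13343 at P7, Scgb1a1 18104 and 6764, and Lyz2 5809 and 1635. Rescaling to equal totals lowers the P28 value of every gene. When the P28 values were rescaled to the P7 total, 8 markers were at least 2-fold lower at P28, all but Ager and Hopx, against 4.02% of all genes, and no marker was higher, against 0.642%. The median log2 ratio then stood at -0.36 for all genes and at -1.19 for the markers. All genes apart by 2-fold split into 388 lower and 62 higher with equal totals, and into 189 lower and 114 higher as deposited. With the median log2 ratio of all genes set to 0, 2 markers were at least 2-fold lower, as were 151 of the 9653 genes. With equal upper quartiles 3 markers were, as were 173 of the 9653 genes.

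**Figure D1:**
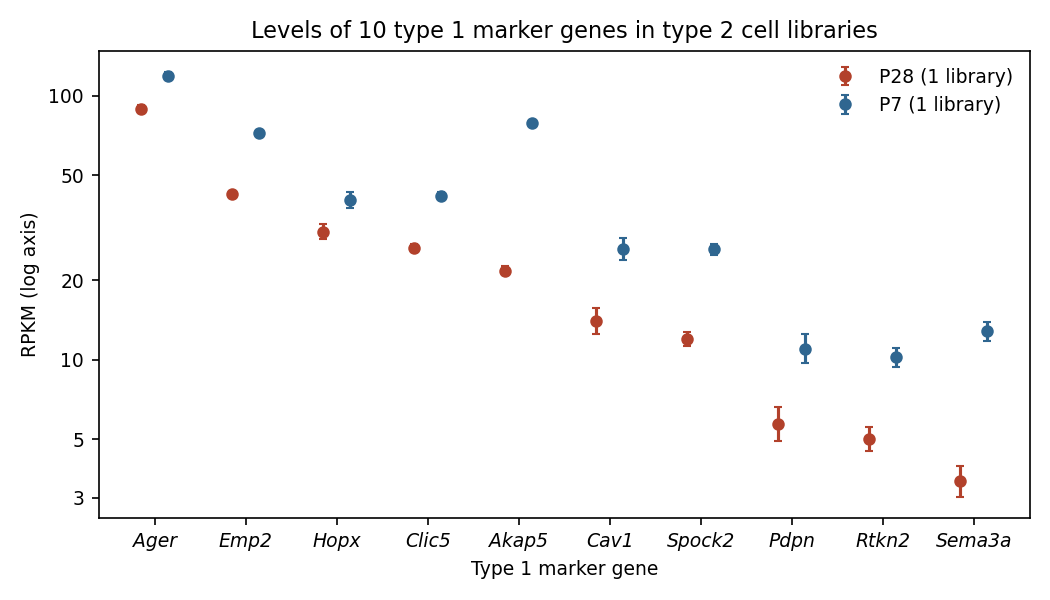
RPKM (log axis) of each of the 10 type 1 markers in the P28 (red) and the P7 (blue) library, ordered by the P28 level; points are single libraries and bars are 95% counting intervals. Every P28 point lies below its P7 point, and the gap is widest for Akap5 and Sema3a.

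Among the surface proteins, Ager was the most abundant marker in both libraries. Ager encodes the receptor for advanced glycation end-products, a membrane protein that is dense on type 1 cells (chromosome 17, 34597862 to 34600936, plus strand). It had 89.1 RPKM at P28 and 119 at P7, so it was 1.33-fold lower at P28 (1.27 to 1.40), and it ranked 120th of all genes at P28 and 78th at P7. Of the 10 markers, only Hopx had a ratio as close to 1.

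Emp2, a tetraspan membrane protein of the PMP22 family (chromosome 16, 10281749 to 10313968, minus strand), had 42.3 RPKM at P28 and 72.5 at P7, 1.72-fold lower at P28 (1.65 to 1.78). Cav1, the coat protein of the membrane pits called caveolae (chromosome 6, 17306335 to 17341452, plus strand), had 14.0 and 26.3 RPKM at P28 and P7, 1.87-fold lower (1.62 to 2.17). Pdpn, podoplanin, a mucin-type glycoprotein of the apical membrane (chromosome 4, 143267431 to 143299564, minus strand), had 5.70 RPKM at P28 and 11.02 at P7, 1.93-fold lower (1.59 to 2.35). The intervals of Cav1 and Pdpn overlap along most of their width, so their ratios cannot be told apart by counting. The ratio interval of Ager lies above those of all 3.

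The genes of the cell cortex and of signalling scaffolds differed most among themselves. Akap5 encodes an anchoring protein that holds protein kinase A and the phosphatase calcineurin at the membrane (chromosome 12, 76324891 to 76334153, plus strand). It had 21.7 RPKM at P28 and 78.9 at P7, 3.63-fold lower at P28 (3.48 to 3.79). Of the 9653 genes, 0.28% had a lower log2 ratio.

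Clic5, a chloride intracellular channel protein tied to cortical actin and ezrin (chromosome 17, 44188584 to 44280172, plus strand), had 26.5 RPKM at P28 and 41.9 at P7, 1.58-fold lower (1.5 to 1.66). Rtkn2, a relative of Rtkn (chromosome 10, 67979570 to 68059740, plus strand), had 5.02 RPKM at P28 and 10.2 at P7, 2.03-fold lower as a plain ratio (1.78 to 2.32), with a log2 ratio of -0.90 that is just short of 2-fold. The Rtkn2 exons overlap an antisense gene, Gm16212, and whether reads were counted by strand is not stated.

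Both secreted products were at least 2-fold lower at P28, Spock2 only narrowly (log2 ratio -1.07, and -0.88 with a pseudocount of 5). Sema3a, a class 3 semaphorin that guides axons and vessels (chromosome 5, 13125414 to 13602565, plus strand), had 3.48 RPKM at P28 and 12.8 at P7, 3.69-fold lower (3.15 to 4.33). Spock2, the secreted proteoglycan testican-2 (chromosome 10, 60106219 to 60135198, plus strand), had 11.95 RPKM at P28 and 26.2 at P7, 2.19-fold lower (2.03 to 2.37). Sema3a and Akap5 have overlapping intervals and lie apart from the other 8, with Spock2 next.

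Hopx, the one nuclear protein, is an atypical homeodomain factor that does not bind DNA (chromosome 5, 77086988 to 77115121, minus strand). It had 30.6 RPKM at P28 and 40.3 at P7, 1.32-fold lower at P28 (1.20 to 1.45), which overlaps the interval of Ager. The Hopx exons overlap the antisense gene Hopxos, whose reads cannot be told apart from those of Hopx without strand.

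**Figure D2:**
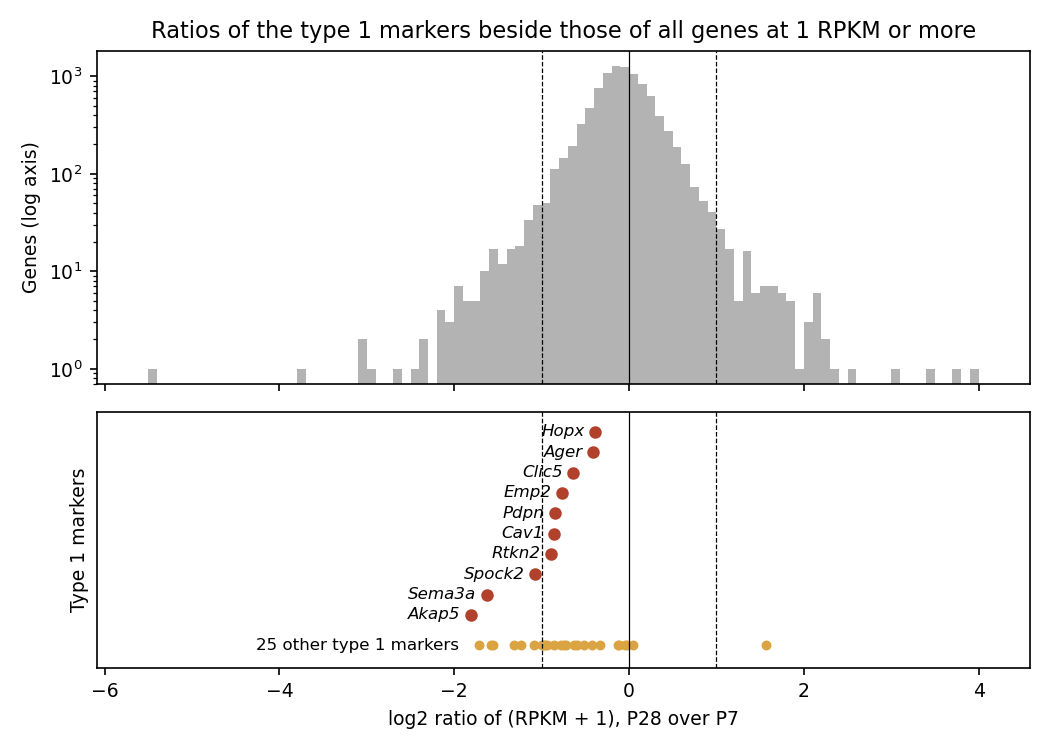
Upper panel, number of genes (log axis) by log2 ratio of (RPKM + 1), P28 over P7, for the 9653 genes at 1 RPKM or more; lower panel, the 10 type 1 markers and 25 other type 1 markers on the same axis, with dashed lines at 2-fold. All 10 markers lie left of 0, from Akap5 at -1.81 to Hopx at -0.39.

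The order of the levels differed between the ages. At P28 the order from high to low was Ager, Emp2, Hopx, Clic5, Akap5, Cav1, Spock2, Pdpn, Rtkn2 and Sema3a, and the neighbours whose counting intervals overlapped were Cav1 with Spock2 and Pdpn with Rtkn2. At P7 it was Ager, Akap5, Emp2, Clic5, Hopx, Cav1, Spock2, Sema3a, Pdpn and Rtkn2. There, intervals overlapped between Clic5 and Hopx, Cav1 and Spock2, Sema3a and Pdpn, and Pdpn and Rtkn2. These level intervals used the mean transcript length, and their overlaps can depend on that choice. For Cav1 at P28 it gave about 319 reads, against 908 with the transcripts that have a RefSeq accession. Akap5 took place 5 at P28 and place 2 at P7, and Sema3a place 10 and place 8. The levels spanned 25.6-fold at P28 and 11.7-fold at P7.

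Ratios between genes of 1 library do not depend on the scaling between libraries. Set against Ager, Hopx stood at 34.3% of the Ager level at P28 and 33.9% at P7, so the pair kept the same proportion within counting error. Akap5 stood at 24.4% of Ager at P28 and 66.4% at P7, and Sema3a at 3.90% and 10.8%. Spock2 stood at 13.4% of Ager at P28 and 22.1% at P7, and Clic5 at 29.8% and 35.3%. Relative to Ager, the intervals of all of the other markers but Hopx lay below 1, from 0.307 to 0.426 for Sema3a up to 0.789 to 0.907 for Clic5.

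The size of the difference depended on the gene that the markers were divided by. Per Nkx2-1, the lineage factor of lung epithelium (47.5 RPKM at P28 and 60.1 at P7), the P28 over P7 ratio was 0.949 for Ager (0.883 to 1.02) and 0.961 for Hopx (0.863 to 1.07), and both intervals include 1. The other 8 markers stayed below 1 per Nkx2-1, between 0.343 for Sema3a and 0.802 for Clic5. Per Epcam, an adhesion molecule of all epithelial cells (21.8 RPKM at P28 and 25.5 at P7), Ager had 0.877 (0.774 to 0.995) and Hopx 0.889 (0.766 to 1.03). Per Sftpc, which was itself higher at P28, all 10 lay between 0.15 and 0.421. Akap5, Sema3a and Spock2 were below 0.6 under each of these divisors. Nkx2-1 and Epcam were themselves lower at P28, with ratios of 0.790 and 0.855, and Nkx2-1 is also a regulator of type 1 cell fate. The epithelial gene Cdh1 had a ratio of 0.997 (0.952 to 1.05) and was not used as a divisor.

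**Figure D3:**
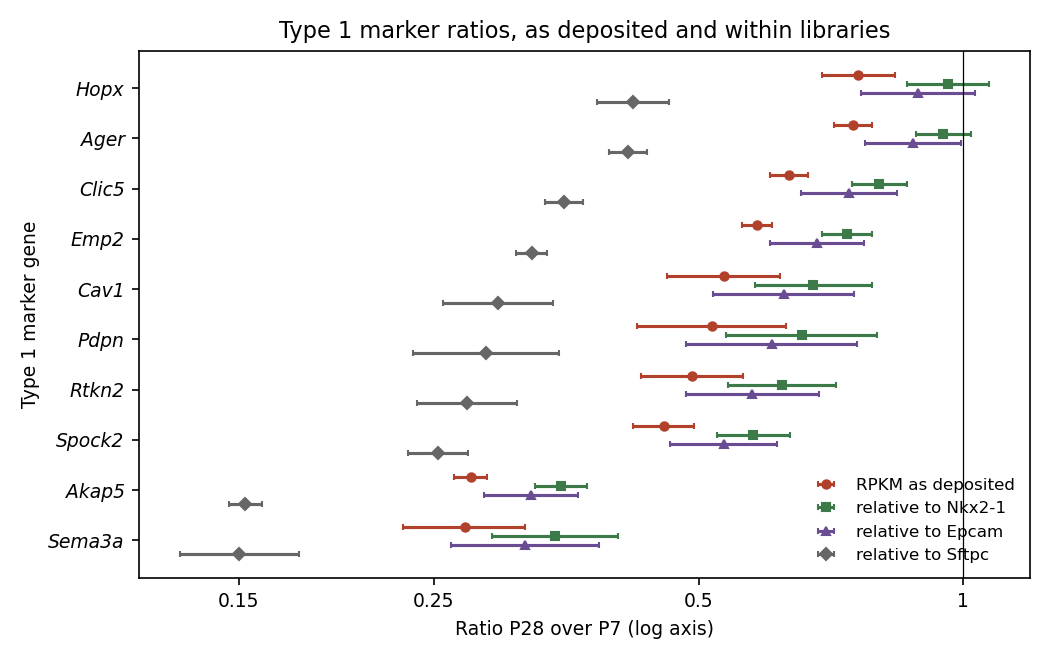
Ratio of P28 over P7 (log axis) for each type 1 marker as deposited and after division by Nkx2-1, Epcam or Sftpc of the same library; bars are 95% counting intervals. The bars of Hopx and Ager include 1 when divided by Nkx2-1, and that of Hopx also when divided by Epcam, while Akap5 and Sema3a stay at 0.349 or lower under every divisor.

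A further 25 genes in use as type 1 markers, chosen with earlier results of these data known, also stood mostly lower at P28. Of these 25, all measured, 6 were at least 2-fold lower at P28, 1 was higher and 23 had a log2 ratio below 0, with a median of -0.74. Over all genes, 1.96% were lower by that rule and 1.18% higher. With equal totals 15 were at least 2-fold lower, 1 was higher and the median was -1.11. The shares of all genes were then 4.02% lower and 0.642% higher. Among all 9653 genes 60.7% had a log2 ratio below 0. The lower genes were Igfbp2, an IGF-binding protein (6.07 RPKM at P28 and 22.3 at P7), Ndnf, a secreted neurotrophic protein (20.6 and 63.6), Lama3, a laminin chain of the epithelial basement membrane (6.07 and 19.8), Agrn, the basement membrane proteoglycan agrin (5.15 and 14.3), Scnn1g, a subunit of the epithelial sodium channel (12.5 and 30.8), and Sema3e. Cyp2b10, a cytochrome P450, was the higher gene, with 21.8 RPKM at P28 and 6.65 at P7, a ratio of 3.27 (2.76 to 3.90). Aqp5, a water channel gene, stood at 19.0 and 18.5 RPKM (log2 ratio 0.04 as deposited, -0.33 with equal totals). Lmo7, Limch1, Mal2 and Gramd2 were among the 23 below 0, but their ratios, from 0.907 for Gramd2 to 0.983 for Mal2, had intervals that include 1. Cldn18, a tight junction claudin, had 110.9 RPKM at P28 and 202.3 at P7, a log2 ratio of -0.86.

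Relatives and partners of single markers did not all share the direction of their marker. Among the chloride intracellular channel genes, Clic4 had 20.8 RPKM at P28 and 10.3 at P7, a ratio of 2.03 (1.85 to 2.22), so it stood on the other side of 1 from Clic5. Clic3 had 37.2 and 51.2 RPKM, Clic6 4.50 and 4.54, and Clic1 14.0 and 13.5 (log2 ratio 0.05 as deposited, -0.32 with equal totals).

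The other class 3 semaphorins that reached 1 RPKM were also lower at P28. Sema3e had 5.95 RPKM at P28 and 13.8 at P7, and Sema3b and Sema3c had 2.58 and 1.89 RPKM at P28 against 5.14 and 4.10 at P7. Sema3f had 0.743 RPKM at P28 and 1.19 at P7, and its ratio interval (0.343 to 1.13) includes 1. Of their receptors, Nrp2 had 2.22 and 6.15 RPKM, a log2 ratio of -1.15, while Nrp1, the neuropilin that binds Sema3a, had 22.1 and 25.1, a log2 ratio of -0.18. Of the plexin co-receptors, Plxna1 had 6.18 RPKM at P28 and 8.23 at P7, and Plxna2 6.15 and 4.73 (log2 ratio 0.32 as deposited, -0.02 with equal totals). Of these 13 genes 9 reached 1 RPKM, and among them Sema3e and Nrp2 were at least 2-fold lower and none was higher. Over all genes 1.96% were lower by that rule. With equal totals Sema3b and Sema3c joined them, where 4.02% of all genes were lower.

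The P28 over P7 ratio of Akap5 was lower than those of the genes of its binding partners, although its level was higher than theirs in both libraries. The kinase subunit genes Prkar2a (8.02 RPKM at P28 and 8.25 at P7) and Prkaca (8.24 and 7.42), and the calcineurin gene Ppp3ca (8.89 and 14.6), had log2 ratios of -0.04, 0.13 and -0.66, against -1.81 for Akap5. With equal totals Prkaca had -0.21. None of the 5 partners that reached 1 RPKM was 2-fold apart as deposited, where 1.96% of all genes were lower and 1.18% higher. Ppp3ca was 2-fold lower with equal totals (-1.01), as were 4.02% of all genes.

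Spock2 has no relative in its family with a comparable level here. Spock1 and Spock3 were at 0.043 RPKM or less in both libraries, while Sparc, a matrix protein with related domains, had 117 RPKM at P28 and 240 at P7, 2-fold lower on the log2 scale (-1.03). For Rtkn2, the relative Rtkn had 2.87 and 4.13 RPKM, a log2 ratio of -0.41.

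Cav1 and its coat partners differed in size. Ptrf, the cavin that caveolae need, had 4.42 RPKM at P28 and 8.29 at P7, a ratio of 0.533 (0.447 to 0.636) beside 0.534 for Cav1. Cav2 had 5.41 and 7.61 RPKM, a ratio of 0.711 (0.581 to 0.872), and the cavin gene Sdpr 12.9 and 14.7, a ratio of 0.878 (0.798 to 0.965). The muscle caveolin Cav3 was at 0 in both libraries. In the family of Emp2, Pmp22 had 34.2 RPKM at P28 and 49.4 at P7 and Emp1 3.42 and 6.71, with ratios of 0.692 and 0.509 around the 0.583 of Emp2.

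Of the ezrin-type linkers that bind the tail of podoplanin, Msn (moesin) had 47.9 RPKM at P28 and 78.4 at P7, a log2 ratio of -0.70 as deposited and -1.09 with equal totals, while Ezr had 51.8 and 52.7. Rdx (radixin) had 19.0 and 15.1 (log2 ratio 0.31 as deposited, -0.06 with equal totals). Clec1b, the platelet receptor of podoplanin, was at 0 in both. The Ager ligand genes Hmgb1 (24.0 RPKM at P28 and 26.0 at P7) and S100a11 (207 and 201) had log2 ratios of -0.11 and 0.04, the second turning to -0.35 with equal totals.

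**Figure D4:**
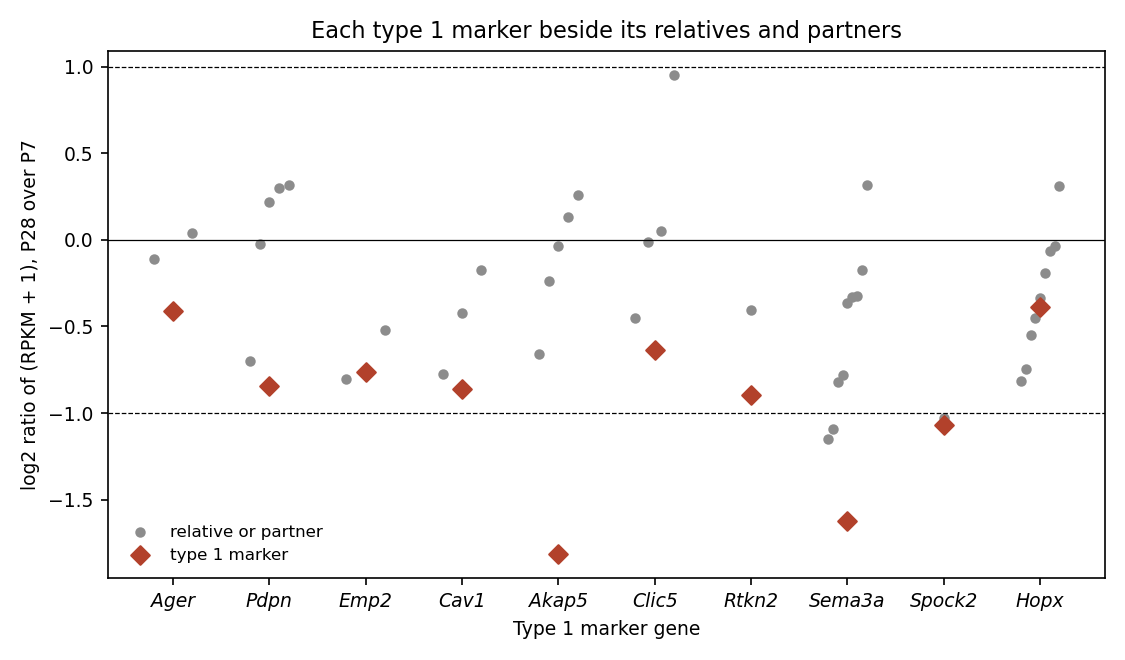
Log2 ratio of (RPKM + 1), P28 over P7, for each type 1 marker (diamond) and its relatives or partners at 1 RPKM or more (grey points); for Hopx the points are the other regulators of type 1 cell fate, and dashed lines mark 2-fold. Akap5 at -1.81 and Sema3a at -1.63 lie below all of their relatives and partners. So do the other markers except Emp2 and Hopx, with Spock2 (-1.07) only narrowly below Sparc (-1.03). Emp2 and Hopx lie within the range of their lists.

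Regulators of type 1 cell fate differed less than most markers. Of 11 such genes, Hopx among them, 10 reached 1 RPKM. None was 2-fold apart, 9 had a log2 ratio below 0, and the median was -0.36. As deposited, 1.96% of all genes were 2-fold lower, 1.18% were higher and 60.7% had a log2 ratio below 0. With equal totals the median of the regulators was -0.74, and Wwtr1 (-1.15) and Gata6 (-1.06) were at least 2-fold lower, as were 4.02% of all genes. Wwtr1, which encodes the Hippo pathway effector TAZ, had 6.65 RPKM at P28 and 12.5 at P7, a ratio of 0.533 (0.484 to 0.586). Its relative Yap1 had 7.01 RPKM at P28 and 5.45 at P7, a ratio of 1.29 (1.08 to 1.54), although its log2 ratio was 0.31 as deposited and -0.03 with equal totals. Gata6, a zinc finger factor of lung epithelium, had 4.74 and 8.60 RPKM, and Tead1, a DNA-binding partner of both effectors, had 10.8 and 15.2.

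Markers of other cells that also express some of these genes differed between the libraries too. Endothelial cells express Cav1, and lymphatic endothelium, mesothelium and fibroblasts can express Pdpn. Of 18 endothelial markers 14 reached 1 RPKM, 7 were at least 2-fold lower at P28 and none was higher. Over all 9653 genes, 1.96% were lower and 1.18% higher by that rule. The summed level of all 18 endothelial markers was 32.4 RPKM at P28 and 69.5 at P7, a ratio of 0.467 beside 0.534 for Cav1. That sum depends in part on Esam, the highest of them at P28. It had 10.2 RPKM at P28 and 9.68 at P7, a ratio of 1.06 (0.842 to 1.33). The defining gene Cdh5 had 2.77 RPKM at P28 and 9.44 at P7, and Pecam1 had 1.81 and 4.70. The 5 lymphatic markers summed to 2.33 RPKM at P28 and 5.99 at P7, with Prox1 at 0.157 and 0.329. The 5 mesothelial markers summed to 4.91 and 7.79 RPKM, with Wt1 at 0.066 and 0.073 and Msln at 1.19 and 5.24, while Upk3b (2.04 and 1.23) and Lrrn4 (0.714 and 0.294) were higher at P28. The 14 fibroblast markers summed to 32.1 RPKM at P28 and 59.6 at P7, with Mfap4 the highest in both libraries (14.4 and 19.6). Of the 10 at 1 RPKM or more, 4 were at least 2-fold lower. They were Fbln5 (2.08 RPKM at P28 and 10.6 at P7), Eln (3.77 and 10.2), Postn (0.346 and 4.03) and Acta2 (0.458 and 2.03). Inmt was at least 2-fold higher, with 2.31 RPKM at P28 and 0 at P7, and Dcn (1.35 and 0.490) and Pdgfra (0.730 and 0.152) were also higher at P28. The part of these cells in the type 1 marker values was not tested.

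As deposited, other marker lists went the other way or differed little. The 12 type 2 markers had a median log2 ratio of 0.44 with 10 above 0, but with equal totals the median was 0.06 with 6 above 0. The 8 airway markers that reached 1 RPKM had a median of 0.72 as deposited and 0.35 with equal totals. Of the type 2 markers, Sftpa1 was at least 2-fold higher as deposited (1.23) but not with equal totals (0.84), and Abca3, the lipid transporter of lamellar bodies, had 65.1 RPKM at P28 and 61.7 at P7 (log2 ratio 0.08 as deposited, -0.31 with equal totals). The 8 genes of all lung epithelial cells had a median of -0.24 and none was 2-fold apart, where 1.96% of all genes were lower and 1.18% higher. Cdh1, E-cadherin, had 61.2 and 61.3 RPKM. Among genes of tissue dissociation, Hspa1a and Hspa1b, near-identical heat shock genes whose reads may be shared, had 4.004 and 2.47 RPKM at P28 against 0.753 and 0.483 at P7, while Fos had 35.0 and 35.8. The part of dissociation in the marker values was not tested.

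**Figure D5:**
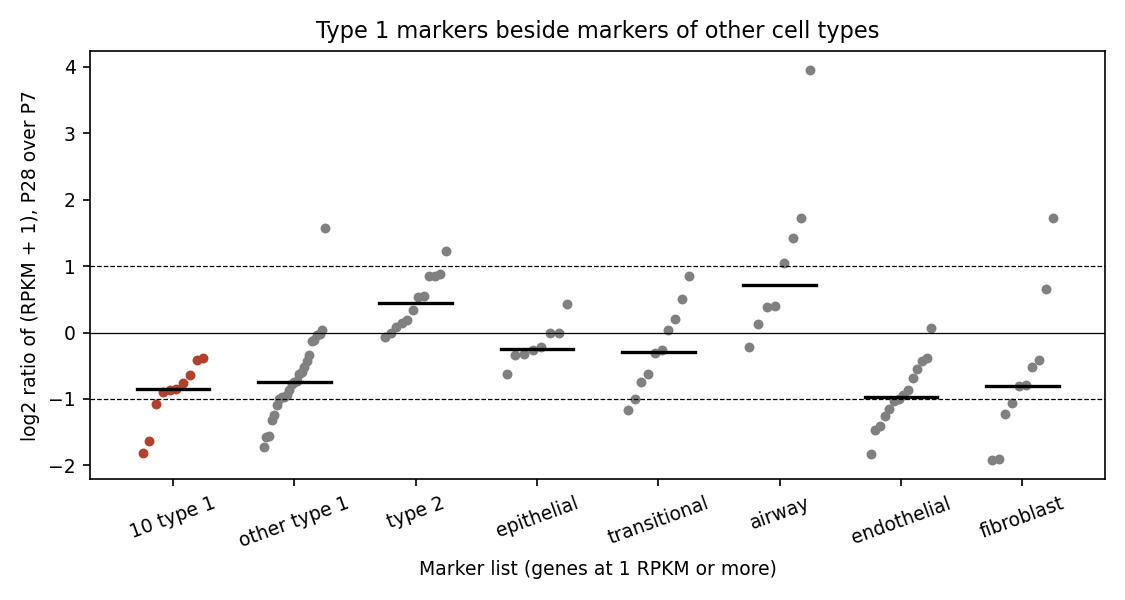
Log2 ratio of (RPKM + 1), P28 over P7, for genes at 1 RPKM or more in each marker list; points are genes, black bars are list medians, and dashed lines mark 2-fold. As deposited, the medians are -0.85 for the 10 type 1 markers and -0.74 for the other type 1 markers, beside -0.97 for endothelial, -0.80 for fibroblast, 0.44 for type 2 and 0.72 for airway markers.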

How the data were processed

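Per the labels' protocols, total RNA of mouse type II pneumocytes was made into Nextera XT libraries and read as paired Illumina reads. TopHat2 2.0.9 and GRCm38 (mm10) are named in the submitters' processing notes. The authors deposited 1 column of RPKM per library, per the file headers. How RPKM was computed, and on which annotation, is not given in the sources used here. No column was left unused.

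Ratios are log2 of (RPKM + 1), P28 over P7, for genes at 1 RPKM or more in either library, called at 2-fold. There was no test. Depth came from low values of genes with 1 transcript length. They fell on whole steps within 0.05 for 53.2% of 886 genes at P28 and 57.5% of 821 at P7. Chance gives 10% for a step fixed beforehand. The step used was the one that best fitted these same genes, so the 10% is not its chance value. The commonest ratio of low values, 0.716, does not need lengths. Read numbers (181 to 4523 per marker at P28, 250 to 7452 at P7) used the mean GENCODE M21 transcript length and are approximate. Ratio intervals are exact Clopper-Pearson, level intervals exact Poisson, and intervals relative to another gene normal on the log scale. They cover counting error only, since reads without molecular identifiers can be PCR copies.

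Members and lists were chosen with earlier results of these data known. Named were all 10 markers, their relatives and partners, and from other lists at most the 4 largest ratios and 2 highest levels; Aqp5, Sema3e, Scnn1g, Agrn and other list members outside this rule were named after their values were seen. Alternatives changed pseudocount, filter, scaling, threshold, divisor and transcript length. The ratio and interval code was checked on simulated data. Promoter windows came from RefSeq, GRCm38.p6. Python 3.11.15, SciPy 1.17.1 and pandas 2.3.3 were used. Values of a few related genes are not reported here.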

Additional observations from a re-analysis of the deposited data

How the results depend on the processing

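The scaling between the libraries and the threshold changed the count of markers at least 2-fold lower at P28, which was 3 as deposited. It was 8 with equal totals and 8 at a 1.5-fold threshold (7.46% of all genes), where Ager and Hopx were the exceptions each time. The other settings (pseudocounts 0.1 and 5, no filter, a filter of 5 RPKM, median ratio set to 0, equal upper quartiles) gave 2 to 4. Spock2 was not called with a pseudocount of 5 (-0.88) or the median set to 0 (-0.99), and Rtkn2 was called with a pseudocount of 0.1. Of the 9653 genes, 530 were lower with a pseudocount of 0.1 and 34 with a pseudocount of 5. Without a filter 189 of 16731 genes were lower, and with a filter of 5 RPKM 93 of 3631. No setting gave a marker at least 2-fold higher. Akap5 and Sema3a were called in all of these settings. The median log2 ratio of the markers was -1.19 with equal totals and between -0.92 and -0.66 in the others. The median P28 over P7 ratio per Sftpc was 0.291, and it was 0.665 per Nkx2-1 and 0.615 per Epcam; the divisors themselves differ between the libraries. With the shortest or longest transcript, or those with a RefSeq accession (chosen after seeing the data), the ratio interval of all 10 markers still lay below 1. Its width for Sema3a, Cav1, Pdpn and Rtkn2 depends on the length used; for Sema3a it was 0.167 to 0.429 with the shortest transcript and 0.244 to 0.301 with the longest. No log2 ratio of a marker changed sign in any of these settings. No paired analysis was possible because each age has 1 library. Depth limits Pdpn and Sema3a most, with about 181 and 216 reads at P28.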

Other observations

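Markers of the transitional state between type 2 and type 1 cells, in which keratin 8 and claudin 4 are usually high, differed in both directions between the libraries. Of 12 such genes 10 reached 1 RPKM, 1 was at least 2-fold lower at P28 (Itgb6, an integrin chain, with 5.94 RPKM at P28 and 14.6 at P7) and none was higher. Over all genes 1.96% were lower by that rule and 1.18% higher. With equal totals Fn1 and Trp53 were at least 2-fold lower as well, where 4.02% of all genes were lower. Krt8 had 11.2 RPKM at P28 and 13.7 at P7, Cldn4 0.269 and 0.847, and Fn1, fibronectin, 2.12 and 5.22. Sfn, a 14-3-3 protein, had 2.39 RPKM at P28 and 0.880 at P7, a ratio of 2.72 (1.74 to 4.41), and Lgals3, galectin-3, 4.22 and 2.67. The list median was -0.29, with 4 of the 10 above 0, and -0.61 with 2 above 0 with equal totals.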
